A study of Mus musculus with 14 samples.

Results

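Hippocampal transcripts of mice exposed to intermittent hypoxia (IH) and of mice exposed to sustained hypoxia (SH) were compared directly by RNA sequencing, with 5 IH and 5 SH libraries of the same experiment. All mice were wild-type C57BL/6J males, 8 weeks old at the start, none carried a transgene, and no drug was part of the exposures. In the IH group oxygen dropped to 10% for 70 s and returned to 21% for 50 s, in a cycle of 2 min that was repeated through 8 h of each of 28 days. The SH group was held at 10% oxygen for 8 h per day and at 21% for the rest of the day, over the same 28 days. The lowest oxygen level and the daily hours of exposure were thus shared, while IH mice returned to 21% oxygen within each cycle. The comparison asks how hippocampal transcripts differ between these patterns of exposure. The groups were exposed in different gas systems, so the oxygen pattern and the exposure device cannot be told apart. Tissue was collected under isoflurane after behavioral tests, from day 30, and not during an exposure. A control group of 4 libraries at 21% oxygen came from a preliminary experiment and is given beside the results as a background level. A difference of these control libraries from IH or SH can come from the exposure or from the experiment, and these cannot be told apart.

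The genes described are those whose mean count reached 40 in the IH group and in the SH group, which held for 7380 of the 7756 genes of the deposited table. Of the 376 genes left out, 68 met this minimum in IH alone, 70 in SH alone and 238 in neither group. Just inside the minimum stood Sco2 with mean counts of 52.2 in IH and 40 in SH, and just outside stood Ccdc17 with 39.8 and 46.4. According to the methods, the table itself was narrowed to protein-coding genes with a signal apart from that of control, and shares of genes hold within that selection only. Counts of the 10 IH and SH libraries were tested by the quasi-likelihood method of edgeR, with TMM scaling and Benjamini-Hochberg adjustment over the 7380 genes. A gene is called higher or lower where the adjusted p is under 0.05. Normalized counts are counts brought to a common library size, and log2 fold changes are IH relative to SH.

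The total count on the genes of the table was between 7568081.5 and 10578073.5 in the IH libraries (median 8498302.5) and between 7203660.5 and 10480839 in the SH libraries (median 8617516.5), and no difference in totals was detected (exact permutation test, 2-sided, p = 0.9444). The first principal component held 25.2% of the variance and did not divide IH from SH, but set apart the libraries richest in choroid plexus, the secretory tissue of the ventricles that lies against the hippocampus. The summed normalized count of 20 choroid plexus markers ran from 2230 to 53400 over the IH libraries and from 1820 to 60800 over the SH libraries, and was highest in SH 1, IH 4, IH 1 and SH 2. Traces of some liver transcripts moved with the group. The serum albumin gene Alb, which failed the count minimum, was at 0 in all 5 IH libraries and between 5.87 and 131.7 normalized counts in the SH libraries, with the highest value in SH 1. Ahsg, Serpina1a, Serpina1b, Serpina1c and Mup3, further transcripts of hepatocytes, were also at 0 in all IH libraries and reached at most 24.5 normalized counts in an SH library. Others did not move in this way, among them Hp (4.10 to 13.1 in IH and 0 to 7.91 in SH), Hpx (3.03 to 15.4 and 0 to 8.85), Apoc3 and Fgg. The growth hormone gene Gh was at 185.7 normalized counts in SH 1. The part of these traces in the results was not tested. The markers of the labelled tissue were present in both groups. The summed normalized count of CA1 pyramidal cell markers was between 18800 and 22600 in IH and between 19800 and 23000 in SH, and that of dentate gyrus granule cell markers was between 16300 and 26700 in IH and between 15300 and 26100 in SH. In such bulk samples, fewer cells of a type and less RNA per cell cannot be told apart.

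Low oxygen is sensed in nearly all cells through hypoxia-inducible factors (HIF), which switch on genes for vessel growth and glycolysis when oxygen falls. The endoplasmic reticulum (ER), where secreted and membrane proteins are folded and receive their disulfide bonds, has an alarm of its own, the unfolded protein response (UPR). Its arms run through ATF6, IRE1 with XBP1, and PERK with ATF4, and they raise chaperones and disulfide isomerases of the ER. The heat shock response is the matching program of the cytosol, in which HSF1 raises small heat shock proteins and HSP70. The hippocampus serves memory formation and is among the brain regions most easily harmed by lack of oxygen.

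The sequences that best introduce the ER genes are their ER stress response elements (ERSE), the sites known to be bound by the ATF6 arm with the CCAAT-binding factor NF-Y. The letters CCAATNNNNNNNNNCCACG were searched on both strands in the 250 bases before the canonical start of each gene (GRCm39 genome, GENCODE annotation). They were found in 6 of 17 ER chaperone and UPR genes (35.3%), against 10 of all 7334 genes with such a window (0.136%). The 10 include these 6 genes and, besides them, Ero1b, Xlr3b, Hnrnpa3 and Ttc41, which starts beside Hsp90b1 on the other strand. The sites follow on the strand of the gene with 5 bases on each side, and capitals mark the fixed letters of the element, which read CGTGG and ATTGG where the match is on the opposite strand. They were chosen to show the element before the canonical start of each of the 6 genes. The Hspa5 site and the second Hsp90b1 site lie inside the annotated span of their gene. A match is a description of these letters and not of binding.
Hspa5, chr2:34662032-34662060, + strand: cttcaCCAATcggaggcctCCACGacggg
Hsp90b1, first, chr10:86541497-86541525, - strand: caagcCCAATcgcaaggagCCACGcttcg
Hsp90b1, second, chr10:86541392-86541420, - strand: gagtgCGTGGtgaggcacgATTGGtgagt
Pdia6, chr12:17316487-17316515, + strand: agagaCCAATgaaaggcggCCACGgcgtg
Dnajc3, chr14:119175234-119175262, + strand: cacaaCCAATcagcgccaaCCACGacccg
Creld2, chr15:88703718-88703746, + strand: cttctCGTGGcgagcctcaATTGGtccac
Calr, chr8:85573699-85573727, - strand: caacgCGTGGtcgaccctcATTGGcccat

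The Pdia6 window is given whole, because none of its bases lies in an annotated exon, to show where the element sits before the start. The element, in capitals, begins 41 bases before the start.
Pdia6 window, chr12:17316283-17316532, + strand: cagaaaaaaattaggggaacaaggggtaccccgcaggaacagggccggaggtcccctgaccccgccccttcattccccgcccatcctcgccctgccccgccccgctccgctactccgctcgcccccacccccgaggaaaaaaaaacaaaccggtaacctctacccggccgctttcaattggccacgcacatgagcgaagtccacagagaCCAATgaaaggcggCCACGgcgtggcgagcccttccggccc

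Genes were called in both directions. The adjusted p was under 0.05 for 64 genes (0.867% of those tested), of which 35 were higher in IH (0.474%) and 29 were lower (0.393%). Fits with 1 library left out called 17 to 55 genes, and limma on the study's processing called 24. An unadjusted p under 0.05 was reached by 1026 genes (13.9%), of which 590 were higher (7.99%) and 436 lower (5.91%). DESeq2 called 229 of 7377 genes, 141 higher and 88 lower. On simulated data of this design the test recovered 53% of genes changed 1.5-fold, so changes of such a size can be missed. The fold was between 1.18 and 2.11 for the genes higher in IH (median 1.37) and between 1.19 and 2.51 for those lower (median 1.35). By the limits used in the study, which ask for 0.58 on the log2 scale in either direction and an unadjusted p under 0.05, 42 genes were higher (0.569%) and 28 lower (0.379%). For all 64 called genes, the 5 IH values did not overlap the 5 SH values, which held for 324 of all genes (4.39%), with 196 higher (2.66%) and 128 lower (1.73%). The median log2 fold change over all genes was -0.00122, a value that TMM scaling holds near 0. The 64 genes came from this fit of 10 libraries, and 174 genes were called when the control libraries joined the fit and its estimate of the spread. None was called in a fit, added after the data were examined, without the 4 libraries richest in choroid plexus markers, where 617 genes had an unadjusted p under 0.05 and all 64 genes kept their direction. The folds of the leading genes were of similar size there, with log2 fold changes of 0.795 for Dbi (adjusted p = 0.0618), 0.713 for Pcsk1n (adjusted p = 0.0566) and -1.432 for Cebpb (adjusted p = 0.141, edgeR).

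**Figure D1:**
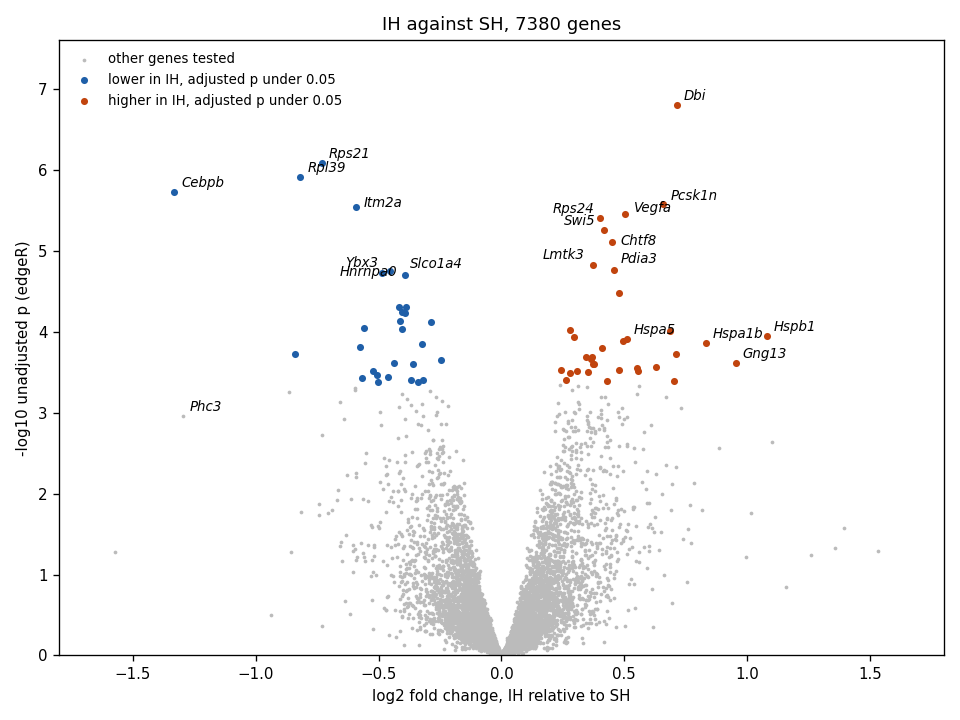
Each of the 7380 genes by its log2 fold change of IH relative to SH (x axis) and by -log10 of the unadjusted p of edgeR's quasi-likelihood test (y axis), with the 35 genes higher and the 29 genes lower in IH at an adjusted p under 0.05 in color. Dbi stands highest on the right, Rps21 and Rpl39 highest on the left, and Cebpb lies farthest out among the called genes, while Phc3 is as far out but not called.

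Of 34 gene lists looked at, that of ER protein folding held the most called genes and had the highest median. Of 17 ER chaperone and UPR genes tested, 5 were higher in IH (Hspa5, Hsp90b1, Pdia3, Pdia4 and Dnajb11) and none was lower, against 0.474% and 0.393% of all genes. At an unadjusted p under 0.05 there were 14 higher and none lower, against 7.99% and 5.91% of all genes. DESeq2 called 8 of the 17 genes higher, against 141 of 7377 genes. The median log2 fold change of the 17 genes was 0.36. Their summed normalized count was between 44200 and 52900 in the IH libraries and between 35500 and 40500 in the SH libraries, without overlap. It was between 29300 and 32600 in the control libraries, and for 13 of the 17 genes the SH mean lay between the control mean and the IH mean.

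Hspa5 encodes BiP, the main HSP70 chaperone of the ER lumen, which also holds the UPR sensors inactive (chromosome 2, 34661982 to 34668880). Its normalized counts were 9440, 7360, 8830, 7590 and 7390 in IH 1 to 5 and 6480, 5410, 5850, 4840 and 5910 in SH 1 to 5. Every IH library was above every SH library, and the control libraries, at 3660 to 4770, were below both groups. The log2 fold change was 0.51 (SE 0.0932, adjusted p = 0.0312, edgeR). Hspa5 was the called ER gene with the largest fold, at 1.42.

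Hsp90b1 encodes GRP94, the HSP90 of the ER, and carries a pair of elements in its window. Its normalized counts were 10200, 8810, 10000, 8380 and 9040 in the IH libraries and 6780, 7670, 7080, 6800 and 7700 in the SH libraries. The groups did not overlap, the gap between them was smaller than the range within IH, and the log2 fold change was 0.37 (SE 0.0708, adjusted p = 0.03988, edgeR). Dnajb11, a J-domain partner of BiP, was the most even of the group. It was between 1260 and 1350 normalized counts in IH, between 1020 and 1090 in SH and between 892 and 950 in control, with a log2 fold change of 0.30 (SE 0.0537, adjusted p = 0.03106, edgeR).

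Both called disulfide isomerases showed the same order. Pdia3, which folds glycoproteins together with calnexin and calreticulin, stood at 5040, 4530, 5630, 4340 and 4860 in the IH libraries and at 3550, 3470, 3620, 3450 and 3650 in the SH libraries. The SH values of Pdia3 lay close together and above the control values of 2910 to 3310. Its log2 fold change was 0.46 (SE 0.0683, adjusted p = 0.009695, edgeR). Pdia4 stood at 1160 to 1380 in IH and at 802 to 1120 in SH, with the highest SH value in SH 1, and differed by 0.43 on the log2 scale (SE 0.0898, adjusted p = 0.04792, edgeR). Kdelr1, the receptor that returns escaped chaperones to the ER, was not on the list and was also called, higher by 0.37 on the log2 scale (adjusted p = 0.04153, edgeR), a call that was lost with each of the 10 libraries left out in turn.

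The members that missed the threshold mostly lay on the same side. Pdia6 had mean normalized counts of 2960 in IH, 2299 in SH and 1969 in control, without overlap between IH and SH (adjusted p = 0.08229, edgeR). Manf, an ER-resident neurotrophic factor that is secreted under stress, had means of 1077, 869.7 and 652.4 in the same order (adjusted p = 0.1433, edgeR), also without overlap. Xbp1, the transcription factor of the IRE1 arm, had means of 1649, 1287 and 1272 (adjusted p = 0.08229, edgeR), with overlapping groups. Sdf2l1, Creld2, Dnajc3 and Calr, of which the last 3 carry the element, had log2 fold changes of 0.57, 0.40, 0.19 and 0.17 with overlapping groups and adjusted p of 0.1726 to 0.3458 (edgeR). On the other side of 0 were Sil1 (-0.20), Dnajb9 (-0.09) and Hspa13 (-0.03), none of them near the threshold. Among the 6 genes with the element, Hspa5 and Hsp90b1 were called and the log2 fold changes ran from 0.17 to 0.51.

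Of 12 heat shock response genes, 3 were higher in IH (Hspb1, Hspa1a and Hspa1b) and none was lower, against 0.474% and 0.393% of all genes. At an unadjusted p under 0.05, 7 were higher and none was lower, against 7.99% and 5.91% of all genes. DESeq2 called 6 of the 12 higher, against 141 of 7377 genes. Hspb1, which encodes the small heat shock protein HSP25, had normalized counts of 287, 231, 348, 179 and 278 in IH 1 to 5 and of 149, 104, 158, 116 and 98.4 in SH 1 to 5. The lowest IH library, IH 4, was just above the highest SH library, SH 3. The fold was 2.11 (log2 fold change 1.08, SE 0.1951, adjusted p = 0.03089, edgeR), the largest among the genes called higher.

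Hspa1a and Hspa1b, neighbors on chromosome 17 that encode nearly the same inducible HSP70, had log2 fold changes of 0.71 (SE 0.1361, adjusted p = 0.03896) and 0.83 (SE 0.1537, adjusted p = 0.03245) in edgeR. Because their sequences are so alike, the division of reads between them is uncertain. Hspa1b was at 724, 670, 1100, 650 and 729 in IH and at 523, 355, 440, 375 and 478 in SH, so IH 3 stood well above the other IH libraries. Among the control libraries, control 4 reached 973 for Hspa1b, 926 for Hspa1a and 222 for Hspb1, while the other control libraries were at 379 to 522, 324 to 461 and 108 to 123. For these 3 genes the control group therefore overlapped both hypoxia groups.

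Further heat shock genes were less separated. Hspb8, a small heat shock protein of chaperone-assisted autophagy, had means of 376.3 in IH, 254.8 in SH and 293.5 in control, and just missed the threshold (log2 fold change 0.56, adjusted p = 0.05202, edgeR). Hsph1, an HSP110 co-chaperone, and Cryab, a small heat shock protein of glia, differed by 0.30 (adjusted p = 0.1112) and 0.49 (adjusted p = 0.1453) on the log2 scale in edgeR. The summed normalized count of the 12 genes was between 22700 and 28600 in IH and between 20700 and 21900 in SH, without overlap, and between 18000 and 22100 in control. The heat shock element GAANNTTCNNGAA, searched on both strands, was found in the window of 1 of the 12 genes (8.33%), Hspe1, against 23 of 7334 windows (0.314%). Hspe1 itself had a log2 fold change of -0.04. Its overlapping matches on both strands are shown with the fixed letters in capitals.
Hspe1, chr1:55127213-55127240, + strand: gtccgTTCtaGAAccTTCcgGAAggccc

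Most chaperone calls were lost in some fits of 9 libraries, in which fewer genes were called overall. Pdia3 was called with each of the 10 libraries left out in turn, whereas Hsp90b1 was called with none of them left out. Hspa5 was called only without IH 5 or SH 1, Dnajb11 and Hspa1b only without IH 3 or SH 1, Pdia4 only without SH 1, Hspb1 only without IH 4, SH 1 or SH 3, and Hspa1a only without IH 2, IH 3 or SH 1. In all of these fits the direction stayed the same. Over all settings the log2 fold change was between 0.451 and 0.569 for Hspa5, between 0.33 and 0.397 for Hsp90b1, between 0.28 and 0.307 for Dnajb11 and between 0.962 and 1.216 for Hspb1. The median of the list was between 0.28 and 0.38 for the ER genes and between 0.24 and 0.32 for the heat shock genes over all settings for which list medians were computed.

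**Figure D2:**
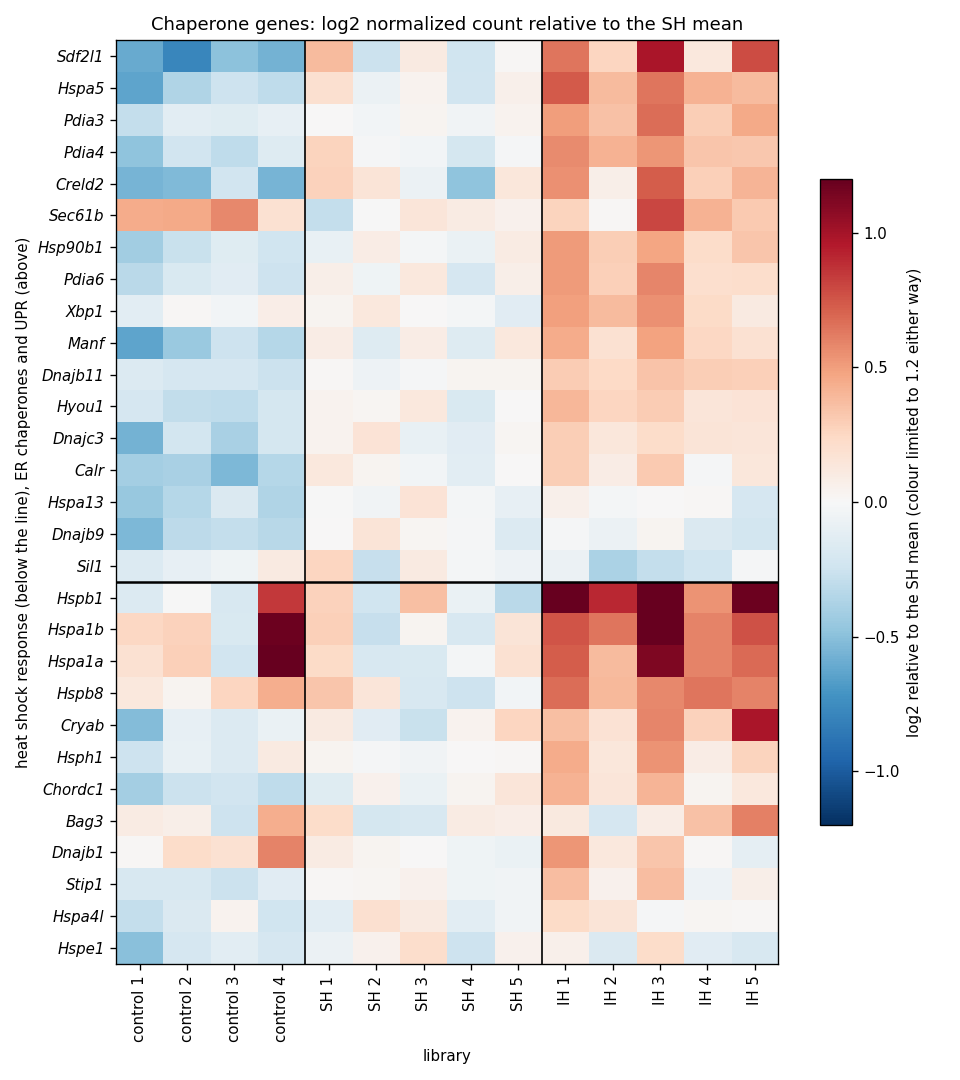
Log2 normalized count of each chaperone gene (rows) in each of the 14 libraries (columns: 4 control, 5 SH, 5 IH), relative to the mean of the SH libraries; red is higher, blue is lower, and colors are limited to 1.2 either way. Most ER genes (above the line) go from blue in control through pale in SH to red in IH, whereas below the line Hspb1, Hspa1a and Hspa1b are red in IH and also in control 4, and Hspe1 and Hspa4l are pale in IH.

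Dbi led all genes. It encodes the diazepam binding inhibitor, an acyl-CoA binding protein of glia whose peptides act on the GABA type A receptor (chromosome 1, 120041010 to 120048808). Dbi stood at 1830, 1850, 2120, 1910 and 2090 in IH 1 to 5 and at 1160, 1290, 1250, 1080 and 1190 in SH 1 to 5. The control libraries, at 1740 to 2010, lay within or beside the IH values and far from SH. The log2 fold change was 0.72 (SE 0.0684, adjusted p = 0.00116, edgeR), a fold of 1.64. Pcsk1n encodes proSAAS, a secreted granule protein that inhibits prohormone convertase 1. It was also higher in IH than in SH, with 8050, 8790, 9930, 8940 and 8940 in IH, 6510, 4810, 5600, 5740 and 5670 in SH and 10100 to 12000 in control. Its log2 fold change was 0.66 (SE 0.0812, adjusted p = 0.003564, edgeR). These were the 2 genes called among 17 neuropeptide and granule genes, against 0.474% of all genes called higher and 0.393% lower, and 3 were higher and none lower at an unadjusted p under 0.05, against 7.99% and 5.91%. Their median log2 fold change was 0.015 (-0.065 to 0.128 over these settings).

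Vegfa, the growth factor that directs vessel sprouting and a classical HIF target, was higher in IH. Its normalized counts were 1910, 2060, 1830, 2080 and 2100 in the IH libraries and 1430, 1470, 1490, 1360 and 1290 in the SH libraries. The groups did not overlap, and 3 control libraries, at 1470 to 1480, were among the highest SH values while the fourth reached 1790. The log2 fold change was 0.50 (SE 0.0641, adjusted p = 0.003681, edgeR). Of 14 HIF targets tested, Vegfa alone was called, against 0.867% of all genes. In all, 3 were higher and none was lower at an unadjusted p under 0.05, against 7.99% and 5.91% of all genes. These were Vegfa, P4ha1, a collagen prolyl hydroxylase (log2 fold change 0.29, adjusted p = 0.1642), and Ankrd37 (0.61, adjusted p = 0.2763). The median of the list was -0.03 (-0.059 to 0.008 over these settings), with 8 genes below 0 and 6 above, and Ndrg1, Hk2 and Egln3 had log2 fold changes of -0.13, -0.14 and -0.23 (adjusted p of 0.631, 0.727 and 0.7927, edgeR).

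Cebpb showed the largest fold of all called genes. It encodes C/EBPβ, a transcription factor of inflammation, metabolism and memory consolidation (chromosome 2, 167530835 to 167532338). Its normalized counts were 97.0, 94.7, 109, 111 and 119 in IH 1 to 5, and 258, 198, 236, 350 and 296 in SH 1 to 5. The IH values lay close together, and the control libraries, at 278, 447, 383 and 494, had a higher mean than SH, with control 1 within the SH range. The log2 fold change was -1.33 (SE 0.1595, adjusted p = 0.003497, edgeR), a fold of 2.51. Atf4, the main transcription factor of the PERK arm and a partner of C/EBP factors, went the other way by a small amount. It was between 1950 and 2270 in IH, between 1720 and 1800 in SH and between 2040 and 2430 in control (log2 fold change 0.28, SE 0.0565, adjusted p = 0.04414, edgeR), and was called with none of the 10 libraries left out. These were the called members of 10 ATF4 and C/EBP genes, against 0.474% of all genes called higher and 0.393% lower. At an unadjusted p under 0.05, 3 of the 10 were higher and 1 was lower, against 7.99% and 5.91% of all genes. Atf5, next in order, did not overlap between the groups but was not called (log2 fold change 0.32, adjusted p = 0.1245, edgeR).

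Both transcripts called among 16 endothelial markers were lower in IH, against 0.393% of all genes. Itm2a, a membrane protein of brain endothelium, was at 614, 761, 660, 693 and 668 in IH and at 1040, 992, 1120, 993 and 976 in SH, with control at 774 to 859 between them (log2 fold change -0.59, SE 0.074, adjusted p = 0.003564, edgeR). Slco1a4, an organic anion transporter of the blood-brain barrier, was at 1040, 955, 1010, 1060 and 1050 in IH and at 1390, 1420, 1260, 1350 and 1320 in SH. Control, at 936 to 1120, coincided with IH (log2 fold change -0.39, SE 0.0593, adjusted p = 0.009695, edgeR). Of the 16 markers, 11 were below 0 and 5 above, and at an unadjusted p under 0.05 there were 3 lower and 1 higher, against 5.91% and 7.99% of all genes. Abcb1a, an efflux transporter of the blood-brain barrier, was the third of the lower ones (-0.25, adjusted p = 0.197, edgeR). The median of the list was -0.03, Ly6c1 and Ly6a had log2 fold changes of 0.29 and 0.38 (adjusted p of 0.3399 and 0.4102, edgeR), and the summed normalized count was between 11500 and 12000 in IH and between 12000 and 13000 in SH. Fbn1, which encodes the microfibril protein fibrillin-1, was also lower in IH, with mean normalized counts of 363 in IH and 521 in SH (log2 fold change -0.52, adjusted p = 0.04376, edgeR), and this call was lost with each of the 10 libraries left out in turn. None of 27 basement membrane and matrix genes was called, against 0.867% of all genes, with 1 lower and 1 higher at an unadjusted p under 0.05, against 5.91% and 7.99%. DESeq2 called Col4a2 among them (0.29, adjusted p = 0.1112 in edgeR), against 229 of 7377 genes.

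**Figure D3:**
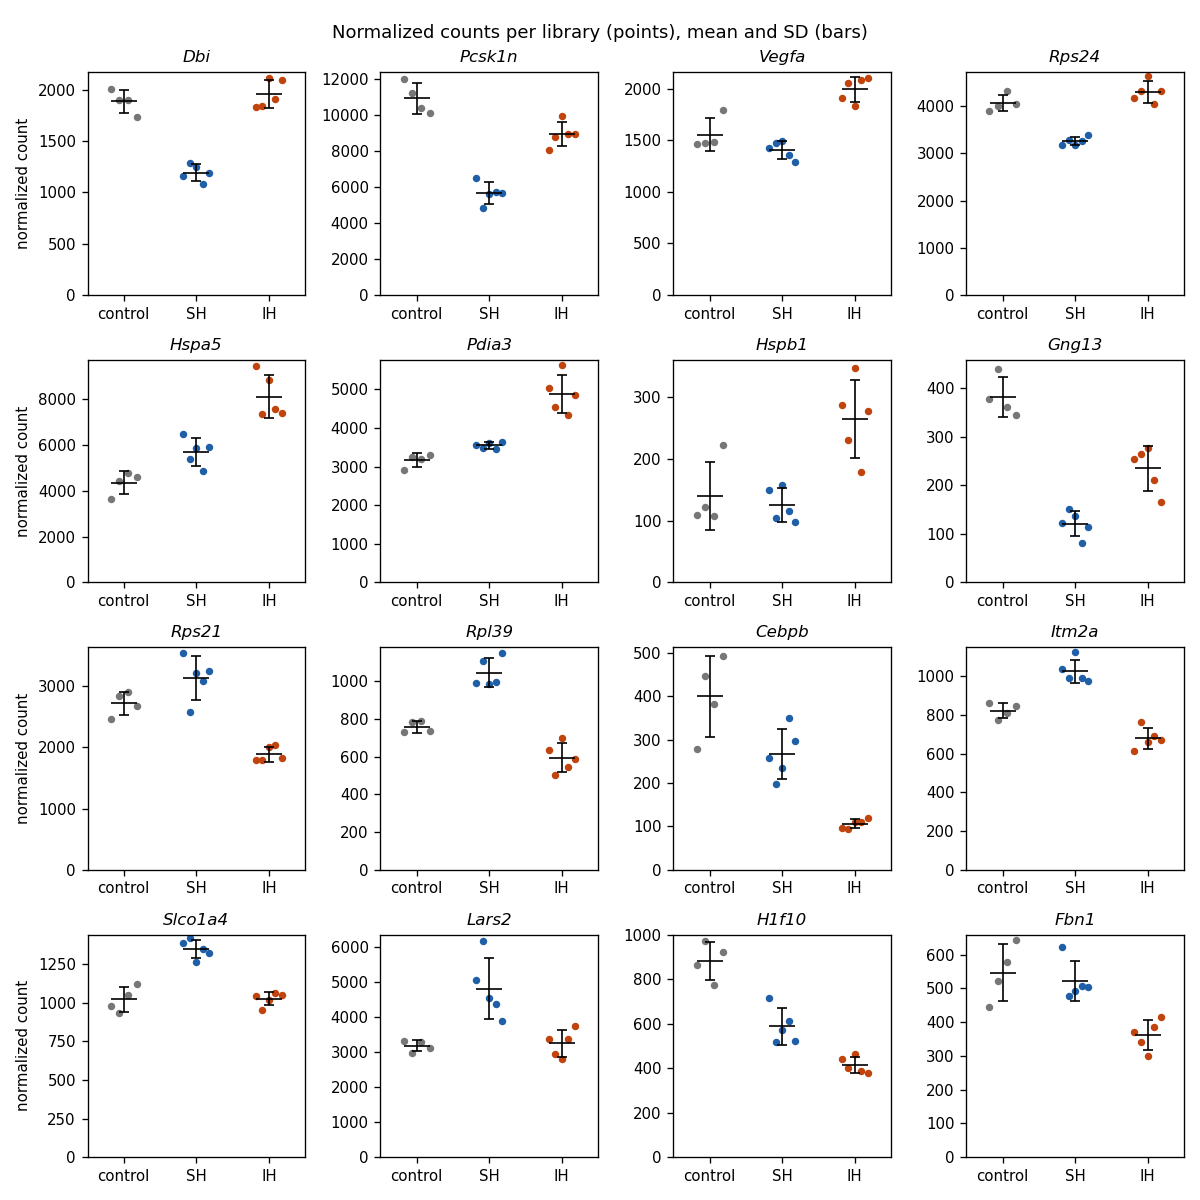
Normalized counts of 16 called genes in each library (points), with the group mean and SD as bars, for 4 control, 5 SH and 5 IH libraries; each y axis starts at 0. IH and SH do not overlap in any panel, and the control values lie with IH for Dbi, Rps24, Slco1a4 and Lars2 and with SH for Fbn1, while they lie above SH for H1f10 and mostly above it for Cebpb.

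Cytosolic ribosomal protein genes were called in both directions. Of 29 genes of the small subunit, Rps21 and Rps28 were lower in IH and Rps24 and Rps19 were higher. Of 37 genes of the large subunit, Rpl39, Rpl22l1 and Rpl31 were lower and Rpl13a was higher. Over all genes 0.393% were called lower and 0.474% higher. Medians were -0.12 and -0.09. At an unadjusted p under 0.05 there were 7 lower and 5 higher of the small subunit, and 13 lower and 5 higher of the large subunit, against 5.91% and 7.99% of all genes. The call of Rpl13a was lost with each library left out, that of Rpl31 remained only without IH 3, and that of Rpl22l1 only without IH 3, SH 1 or SH 4. Many ribosomal protein genes have processed copies elsewhere in the genome, so reads can be shared with copies and the values are uncertain in that respect.

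Rps21 stood at 1790, 1800, 2000, 2040 and 1820 in IH and at 3550, 2580, 3220, 3100 and 3260 in SH, with control at 2460 to 2900, above IH and overlapping the lowest SH library, SH 2 (log2 fold change -0.73, SE 0.0812, adjusted p = 0.003035, edgeR). Rpl39, a small protein that lines the exit tunnel of the large subunit, stood at 634, 504, 701, 543 and 588 in IH and at 992, 1110, 987, 995 and 1150 in SH, with control between them, at 728 to 790 (log2 fold change -0.82, SE 0.0943, adjusted p = 0.003058, edgeR). In contrast, Rps24 stood at 4170, 4330, 4640, 4040 and 4320 in IH and at 3180, 3290, 3170, 3270 and 3390 in SH, with control at 3910 to 4310 (log2 fold change 0.40, SE 0.0514, adjusted p = 0.003681, edgeR). Rps21, Rpl39 and Rps24 were called with each of the 10 libraries left out. Rps19 was higher in IH by 0.48 (adjusted p = 0.01557, edgeR), with IH 3 at 2520 and the other IH libraries at 1950 to 2010, and lost its call in 1 of the 10 fits, the one without SH 3. The call of Rps28 remained only without IH 3. Rpl17-ps8, annotated as a pseudogene of Rpl17, was also lower in IH (-0.84, adjusted p = 0.03896, edgeR, a call that remained only without SH 1), beside Rpl17 itself at -0.73 (adjusted p = 0.09145, edgeR).

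Mitochondrial ribosomal protein genes were called in 1 direction and respiratory chain genes in both. For the counts that follow, 0.474% of all genes were called higher and 0.393% lower. Of 43 mitochondrial ribosomal protein genes, Mrpl54 and Mrpl20 were higher and none was lower, with 13 higher and 1 lower at an unadjusted p under 0.05, against 7.99% and 5.91% of all genes. The median was 0.14, with 32 genes above 0 and 11 below. Mrpl54 was between 265 and 305 in IH, between 133 and 200 in SH and between 286 and 365 in control (log2 fold change 0.69, SE 0.1222, adjusted p = 0.02807, edgeR). Of 30 genes listed for complex I, which passes electrons from NADH to ubiquinone, Ndufab1 was higher (0.41, adjusted p = 0.03431) and Ndufa1 and Ndufa3 were lower (-0.44, adjusted p = 0.04153, and -0.50, adjusted p = 0.04792) in edgeR. Of 19 subunits of complexes II to V, Uqcr11 was higher (0.55, adjusted p = 0.04376, edgeR) and none was lower. In the complex I list 9 genes were higher and 4 lower at an unadjusted p under 0.05, and in complexes II to IV 6 were higher and 3 lower, against 7.99% and 5.91% of all genes. The medians were 0.06 and 0.10. Calls were lost in fits of 9 libraries, while the folds kept their direction (over all settings 0.356 to 0.45 for Ndufab1, 0.478 to 0.632 for Uqcr11, -0.504 to -0.368 for Ndufa1 and -0.574 to -0.437 for Ndufa3). The call of Mrpl20 was lost with each library left out, those of Ndufa1 and Ndufa3 remained only without IH 3, that of Mrpl54 only without SH 1 or SH 4, that of Uqcr11 only without IH 5 or SH 1, and that of Ndufab1 only without IH 3, IH 5 or SH 1.

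Lars2, which charges the mitochondrial leucine tRNA (chromosome 9, 123195952 to 123291731), stood at 3370, 2950, 2790, 3370 and 3730 in IH and at 5050, 6180, 4530, 4370 and 3890 in SH. Control, at 2980 to 3310, lay within the IH range (log2 fold change -0.57, SE 0.1174, adjusted p = 0.04792, edgeR). Its call remained only without SH 5, the SH library closest to IH. Of 12 genes in the list of mitochondrial aminoacyl-tRNA synthetases, Lars2 alone was called, against 0.867% of all genes. The others were further synthetases and the amidotransferase subunits Qrsl1, Gatb and Gatc. At an unadjusted p under 0.05, 1 gene was lower (Lars2) and 1 was higher, against 5.91% and 7.99% of all genes. The higher one was Aars2, at 0.24 (adjusted p = 0.2868, edgeR). Park7, which encodes the redox-sensitive protein DJ-1, was at 1470 to 1740 in IH and at 1890 to 2240 in SH, with control at 1600 to 1840 (log2 fold change -0.39, SE 0.0663, adjusted p = 0.02169, edgeR), and its call remained only without IH 3, SH 1 or SH 2.

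Signaling genes were called one at a time. Gng13, a G protein gamma subunit known from taste cells and retina, was at 255, 264, 278, 210 and 166 in IH and at 122, 150, 136, 81.0 and 114 in SH, with control highest at 345 to 440 (log2 fold change 0.95, SE 0.1879, adjusted p = 0.04153, edgeR). It was the called gene among 11 G protein subunits, against 0.867% of all genes, and its call remained only without IH 5. At an unadjusted p under 0.05, 4 of the 11 were higher and 1 was lower, against 7.99% and 5.91% of all genes. Lmtk3, a membrane-bound neuronal kinase, was at 8340 to 8980 in IH and at 6140 to 7000 in SH (0.37, adjusted p = 0.009695, edgeR). Marcks, an actin-linking substrate of protein kinase C, was at 2330 to 2560 in IH and at 2750 to 3600 in SH (-0.42, adjusted p = 0.0204, edgeR). Apcdd1, a Wnt inhibitor, was lower by a similar amount (-0.39, adjusted p = 0.0204, edgeR), and Lfng, a glycosyltransferase that tunes Notch, was higher (0.70, adjusted p = 0.04792, edgeR). Of these, Lmtk3 was called with each of the 10 libraries left out, Apcdd1 in 5 of the 10 fits, Marcks in 4 (without IH 2, IH 3, SH 1 or SH 4) and Lfng only without SH 4.

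Adrb1, the beta-1 adrenergic receptor, just missed the threshold among 23 monoamine and acetylcholine receptors. It was at 227, 293, 280, 203 and 241 in IH and at 443, 327, 421, 346 and 340 in SH, without overlap, and at 446 to 556 in control (log2 fold change -0.59, SE 0.1283, adjusted p = 0.05479, edgeR). No other member of that list, and none of 23 glutamate and GABA receptors, was called in edgeR, against 0.867% of all genes. DESeq2 called Adrb1 alone in these lists, against 229 of 7377 genes. At an unadjusted p under 0.05 each list held 1 lower and no higher gene, against 5.91% and 7.99% of all genes.

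Further called genes stood in none of the lists. Hnrnpa0, an RNA-binding protein of mRNA processing, was between 2090 and 2510 in IH and between 2930 and 3520 in SH (-0.45, SE 0.0675, adjusted p = 0.009695, edgeR). Ybx3, a cold shock domain protein that binds mRNA, was between 494 and 554 in IH and between 671 and 790 in SH (-0.48, SE 0.0727, adjusted p = 0.009695, edgeR). H1f10, a replication-independent linker histone (H1fx in older naming), was between 379 and 463 in IH, between 516 and 718 in SH and between 774 and 971 in control (-0.50, adjusted p = 0.04668, edgeR), and its call was lost with each library left out. Swi5 and Chtf8, which take part in recombination repair and in sister chromatid cohesion, were higher in IH, by 0.42 (adjusted p = 0.004526) and 0.45 (adjusted p = 0.005769) in edgeR. Exons of Chtf8 overlap those of Derpc on the same strand, and those of Hsp90b1, Rpl13a and Grcc10 overlap a gene known by a Gm number on the same strand, so their reads cannot be assigned with certainty. Such overlap on the same strand held for 4 of 63 called genes annotated as protein-coding or lncRNA (6.35%), against 6.63% of all genes.

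Beside the control libraries, the called genes did not hold a single order. The control mean lay nearer to IH for 28 of the 35 genes higher in IH and for 16 of the 29 lower, against 4066 of all 7380 genes. It lay between the group means for 33 of the 64 genes, above both for 21 and below both for 10. Over all 7380 genes, whose median fold between IH and SH was 1.08, the control mean lay between for 1263, above both for 3082 and below both for 3035. The canonical transcripts of called genes were shorter than those of all genes by their medians. Their median length was 2081 bases for the higher and 1824 bases for the lower genes, against 3438.5 bases for all genes, and 27.6% of the lower and 14.3% of the higher genes were under 1000 bases, against 5.13%. With trends of each library with GC content and length removed, 95 genes were called, 56 of them among the 64. Of the same 63 genes, 38 (60.3%) had an exon that overlaps an exon of a gene on the other strand, against 58.4% of all genes, and the strand setting of the counting is not given in the sources used here.

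Several other lists held no called gene in edgeR, against 0.867% of all genes. Over all genes, DESeq2 called 229 of 7377. Of 24 genes of the NRF2 axis and antioxidant enzymes, none was called, 2 were lower and 3 were higher at an unadjusted p under 0.05, against 5.91% and 7.99% of all genes, and the median was 0.01 (12 genes on each side of 0). The nearest to the threshold was Ftl1, the light chain of the iron store ferritin (0.28, adjusted p = 0.0938, edgeR), the member of this list that DESeq2 called, while Gclc, the rate-limiting enzyme of glutathione synthesis, was at -0.18 (adjusted p = 0.1775, edgeR). Of 17 proteasome subunits, none was called, with 3 lower and 2 higher at an unadjusted p under 0.05, against the same shares, and a median of -0.05, and DESeq2 called none either. None of 22 immediate early genes, which mark recent neuronal activity, reached an unadjusted p under 0.05, none was called by DESeq2, and Fos was closest at -0.43 (adjusted p = 0.3924, edgeR).

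Stress hormone and clock genes were not called in edgeR either, against 0.867% of all genes. Of 13 glucocorticoid-induced genes, none was called and 3 were higher at an unadjusted p under 0.05, among them Tsc22d3, which encodes GILZ (0.44, adjusted p = 0.0989), and Map3k6 (1.10, adjusted p = 0.1016) in edgeR. Of 15 circadian clock genes, none was called, with 2 lower and 3 higher at an unadjusted p under 0.05. Per3 and Per2 were at 0.36 (adjusted p = 0.07285) and 0.28 (adjusted p = 0.2169), and Csnk1d, a kinase that phosphorylates the PER proteins, and Nr1d1, a repressor of the clock, were at -0.22 (adjusted p = 0.08023) and -0.30 (adjusted p = 0.1842) in edgeR. Per3 and Csnk1d did not overlap between the groups. DESeq2 called Tsc22d3, Per3 and Csnk1d, against 229 of 7377 genes. Over all genes, 7.99% were higher and 5.91% lower at an unadjusted p under 0.05.

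Cell type markers showed no called gene outside endothelium in edgeR, against 0.867% of all genes, where DESeq2 called 229 of 7377. Microglial markers had the highest median of these lists, 0.285 over 8 genes, with 3 of them higher and none lower at an unadjusted p under 0.05, against 7.99% and 5.91% of all genes. C1qa and C1qc, subunits of complement C1q made by microglia, were at 0.48 (adjusted p = 0.07464) and 0.50 (adjusted p = 0.07651) in edgeR and were called by DESeq2, whereas Trem2 was at -0.05 (adjusted p = 0.966, edgeR). The summed microglial count was between 4760 and 5910 in IH, between 3940 and 4830 in SH and between 5180 and 5840 in control, so the groups overlapped. All 5 erythrocyte genes were below 0, with a median of -0.34, 3 were lower at an unadjusted p under 0.05 (5.91% of all genes), and Hba-a2, called by DESeq2, was at -0.47 (adjusted p = 0.1374, edgeR). Among the other lists, the medians were -0.14 for mural and fibroblast cells, -0.04 for oligodendrocytes, 0.10 for their precursors, 0.07 for astrocytes, 0.02 for interneurons, 0.06 for dentate gyrus granule cells, 0.01 for CA1 and 0.08 for CA3 pyramidal cells, 0.05 for choroid plexus, -0.01 for thalamus and striatum and 0.18 for complement, MHC and interferon genes, with no gene called by edgeR in any of them and none by DESeq2 besides C1qa and C1qc. At an unadjusted p under 0.05 these lists held at most 1 gene in each direction, apart from 4 higher complement, MHC and interferon genes. Several of these medians turned sign among the settings for which list medians were computed. That of choroid plexus ran from -0.82, without the 4 libraries richest in its markers, to 0.708, without SH 1, that of mural and fibroblast cells from -0.317 to 0.12, the latter without SH 3, that of oligodendrocytes from -0.282 to 0.068, and that of thalamus and striatum from -0.117 to 0.094. The medians of interneurons, granule cells and CA1 and CA3 pyramidal cells also crossed 0, whereas those of microglia (0.211 to 0.336) and erythrocytes (-0.44 to -0.208) did not.

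**Figure D4:**
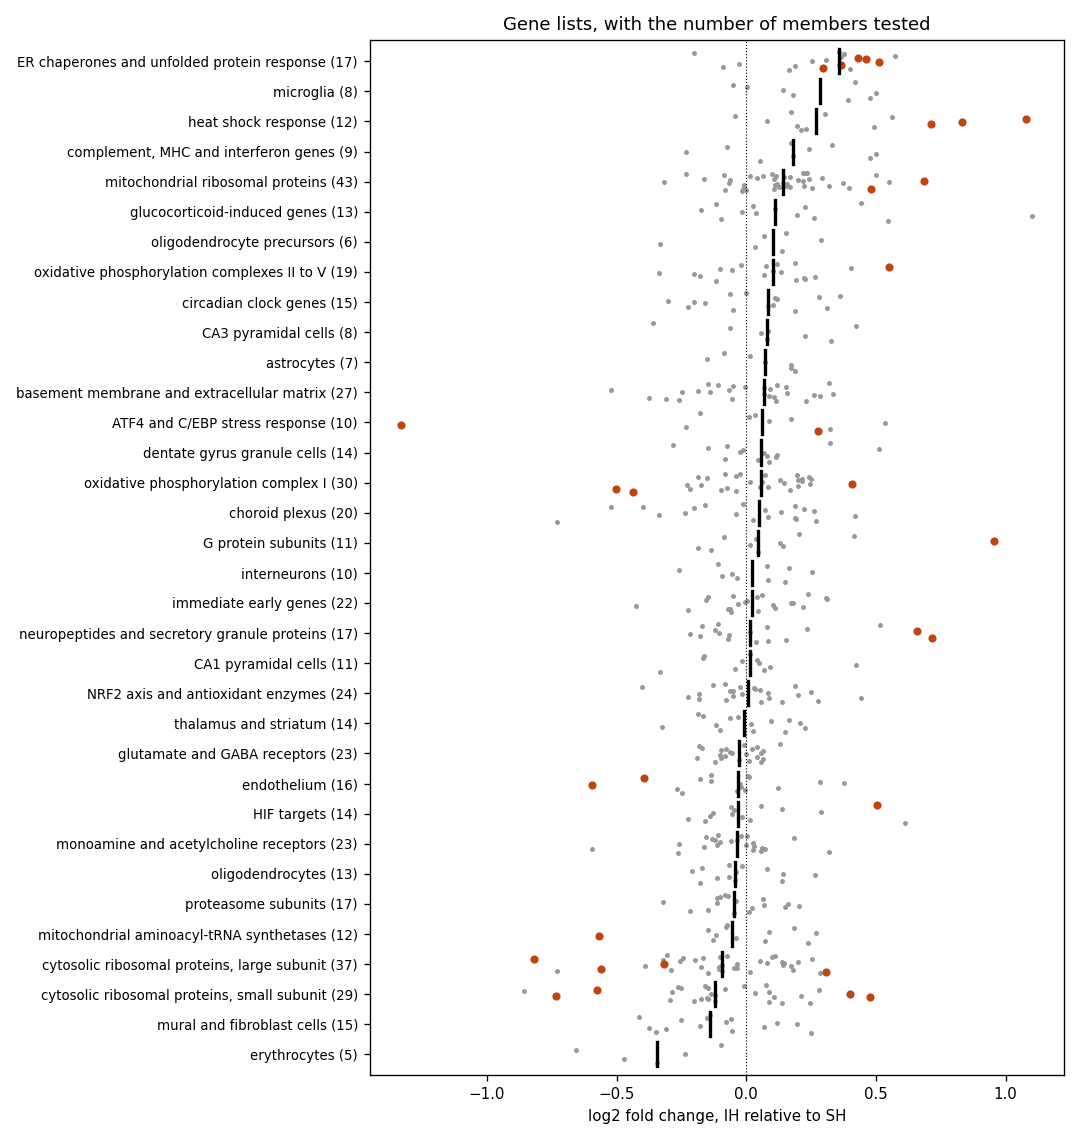
Log2 fold change of IH relative to SH (x axis) for the members tested of each of 34 gene lists (rows, with the number tested), where each point is a gene, colored points are called at an adjusted p under 0.05 and the bar is the median of the list. The ER chaperone list lies farthest to the right with a median of 0.36, and the erythrocyte list farthest to the left with -0.34, though none of its 5 genes is called.

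The panel chosen for RT-qPCR held 23 genes, all of them tested here, and 6 of these were called in the sequencing data, against 0.867% of all genes. The study chose this panel after these libraries were sequenced, so the count is not independent evidence. Dbi and Hspa5 were higher in IH, and Rps21, Cebpb, H1f10 and Lars2 were lower. Hmcn1, a giant basement membrane protein of the hemicentin family, had means of 112.6 in IH, 162.1 in SH and 234.4 in control with overlapping IH and SH values (-0.52, SE 0.231, adjusted p = 0.3344, edgeR). Vstm2l, a secreted immunoglobulin-domain protein of neurons, had means of 847.3, 1018 and 1596 in the same order (-0.26, SE 0.1103, adjusted p = 0.3027, edgeR). For both genes the SH mean lay between IH and control. The RT-qPCR of the study reported a significant difference between IH and SH for Lars2 and Hmcn1 alone, both lower in IH. Its means of Rps21 and Cebpb were higher in IH than in SH, the other way from the sequencing data, without a significant difference. In the sequencing data, the 3 smallest differences of the set were those of Rasl11a (0.05), Trem2 (-0.05) and Rps27 (0.09), with SEs of 0.2103, 0.2015 and 0.2135, and none of these differences was detected.

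Phc3, a polycomb component measured by RT-qPCR, had a large but uneven difference. It was at 661, 585, 2180, 727 and 787 in IH 1 to 5 and at 2160, 2650, 2270, 2420 and 2620 in SH 1 to 5, so 4 IH libraries were low and IH 3 was with the SH libraries. The 4 control libraries, at 552 to 701, were with the low IH libraries. The log2 fold change was -1.30 (SE 0.3078, adjusted p = 0.07464, edgeR) and was -1.81 without IH 3 (adjusted p = 8.43e-06).

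Such separate levels occurred in other genes too. In 57 genes, a list made after the values were seen, the 10 IH and SH libraries fell into a low and a high level at least 2-fold apart with at least 2 libraries in each. None of these genes was called, and in none did the levels part exactly by group. Many were choroid plexus genes, but others were not. The phosphotriesterase-related gene Pter was between 10.4 and 41.0 in IH 3, IH 4, SH 4 and SH 5 and between 1660 and 2050 in the other libraries of both groups. H3c14, a histone H3 gene with the largest log2 fold change of all (-1.57, SE 0.7326, adjusted p = 0.3642, edgeR), was between 4.10 and 6.91 in IH 2, IH 3 and IH 4 and at 87.9 and 134 in IH 1 and IH 5, beside 98.6 to 182 in SH. Of the 20 genes with the largest log2 fold change in size, 5 were called and 7 had such a gap, so size alone did not single out the called genes.

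**Figure D5:**
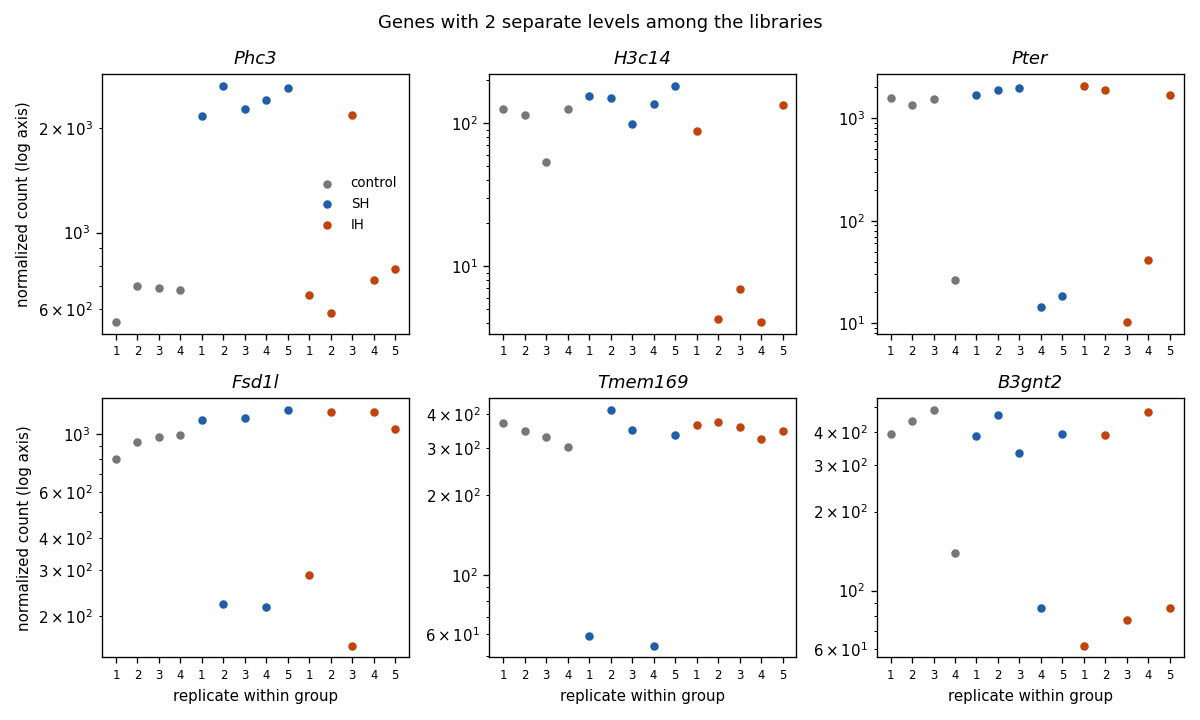
Normalized counts (log y axis) of 6 genes with separate levels among the libraries, by replicate within control, SH and IH (x axis), chosen after the values were seen; each point is a library. Phc3 is low in 4 IH and all control libraries, while for Pter, Fsd1l, Tmem169 and B3gnt2 low and high libraries are not divided by group.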

How the data were processed

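Hippocampal RNA of single mice was sequenced from poly(A) libraries. Per the labels and methods, the authors trimmed reads with fastp 0.23.4, aligned them to GRCm39 with HISAT2 2.2.1 and quantified them with StringTie 2.2.1. The deposited values are estimated counts per gene without normalization between samples, and 10 genes with values that were not whole were rounded. Counts were scaled by TMM and tested with edgeR 4.0.16 (R 4.3.3) in a fit of the 10 IH and SH libraries, which are separate mice. Alternatives were DESeq2 1.42.0, limma 3.58.1 on the study's processing, other scalings and filters, and fits with controls, a replicate block or a covariate. SE was taken as the size of the log2 fold change over the root of the F statistic. On simulated data for the 7380 genes of this comparison, 53% of genes changed 1.5-fold and 89% of genes changed 2-fold were recovered, with 10 false calls.

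The genes, gene lists and tests were chosen with earlier results of these data known. Named genes are the 12 with the smallest p and the 6 with the largest fold in each direction among called genes, called list members, the RT-qPCR genes and the leading members of each list. Others (Kdelr1, Fbn1, Alb, Gh, Pter, H3c14, Hspe1 and those with the ERSE) were chosen after their values were seen. No duplicate was found in the 20 pairs of libraries within IH or within SH, and pairs across groups or with control libraries were not compared. Replicate numbers were not taken as pairs, because deviations of same-numbered libraries correlated at 0.353, -0.034, 0.159, -0.257 and 0.432. In GENCODE, 7707 symbols were found as written, 1 through a synonym and 48 not at all.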

Additional observations from a re-analysis of the deposited data

Results flagged for a closer look

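In a group of 4 or 5 libraries, a value far from the others was looked for in 189 groups of the named genes, and 9 were found in 8 genes, near the 1 in 20 that chance gives. IH 3 was the library that stood apart most often. It was highest among the IH libraries for Rps19 (2520 normalized counts, others 1950 to 2010), Grcc10 (1260, others 1070 to 1100), Hspa1b (1100, others 650 to 729), Ndufa1 (636, others 499 to 532) and Phc3 (2180, others 585 to 787). Control 4 was highest for Vegfa (1790, others 1470 to 1480) and Hspb1 (222, others 108 to 123). Control 1 was highest for Adrb1 (556, others 446 to 458) and lowest for Phc3 (552, others 682 to 701).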

How the results depend on the processing

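All 64 genes kept their direction in each of the 22 settings that refitted them, but the number called moved. Against 64 genes (29 lower, 35 higher), DESeq2 called 229 (88 and 141), the fit with controls 174 (66 and 108), the study's processing with limma 24 (10 and 14) and a choroid plexus covariate 30 (15 and 15). With GC and length trends removed 46 genes were lower. At an adjusted p under 0.01, 15 genes were called. With the replicate block 37 genes were called (15 and 22), 31 of them among the 64. Leaving out 1 library gave 17 to 55 genes, 7 to 31 lower and 9 to 36 higher, fewest without IH 1 or IH 4 (17 each) and most without SH 1 (55). Without the 4 libraries richest in choroid plexus markers, a fit of fewer libraries per group, 0 were called (0 lower and 0 higher). Without a filter on low counts, 54 genes were lower and 64 higher at the study's limits, as more genes of low count were tested. The cause of the other shifts was not tested. Signs turned for 3 genes near 0. These were Rps27 (-0.028 without IH 4, -0.018 without SH 3, up to 0.281 with other libraries left out), Trem2 (0.063 without IH 4, 0.064 without SH 1, 0.022 without SH 4, 0.147 without the 4 libraries, down to -0.149) and Rasl11a (-0.074 without IH 1, -0.032 without IH 3, -0.06 without SH 5, -0.005 without the 4 libraries, up to 0.153). With 5 libraries a group, small changes can be missed at this depth.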
